A study of Mus musculus with 8 samples.

Results

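The Wwtr1 locus was taken as every ATAC-seq peak that lies fully between positions 57240000 and 57420000 of chromosome 3 in the mouse build mm9, an interval of 180 kb. It held 24 of the 126871 deposited peaks. The interval was chosen by measured values: the summed counts of a window within it, from 57300001 to 57400000, were higher in old than in young libraries. The old-against-young values of its peaks are therefore given as a description, without a test of the locus. Calls of single peaks come from a test over the whole table and serve only to describe which peaks differ.

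ATAC-seq measures how open chromatin is, because a transposase cuts and tags DNA that is not packed away. The study used the Omni-ATAC form of the assay on hematopoietic stem cells (HSCs) sorted from bone marrow of C57BL/6 mice. The gate was LSKCD150+CD48-, that is lineage-negative marrow cells that carry Sca-1 and Kit, with CD150 and without CD48 on the surface. There were 4 libraries labelled Old-HSC and 4 labelled Young-HSC. No treatment or genetic change is named for either group. The age of the mice, their sex and whether each library came from its own animals are not stated by the labels. The groups therefore cannot be told apart from anything else that differed between the 2 sets of libraries, and the spread between libraries may be technical. In a bulk sample, more cells with an open site and a more open site per cell cannot be told apart either.

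Wwtr1 encodes TAZ, a transcriptional coactivator of the Hippo pathway and the paralog of Yap1. TAZ has no DNA-binding domain of its own and is brought to DNA mainly by TEAD factors. When the Hippo kinases Lats1 and Lats2 phosphorylate it, TAZ is held in the cytoplasm or degraded. The gene (gene ID 97064) is read from the minus strand, so that transcription runs from high to low coordinates. In the RefSeq gene order its protein-coding neighbours are Tm4sf4 and Tm4sf1 on the low-coordinate side and Commd2 and Ankub1 on the other. The pseudogene Gm16016 lies within the span of Wwtr1. No mm9 annotation was used, so the peaks were not placed in exons, introns or UTRs. The markers of HSCs and of other marrow cells, and the loci of the other Hippo pathway genes, were not analysed here for the same reason.

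The promoter is shown because it holds a copy of the short sequence that the partners of TAZ bind. RefSeq lists 2 transcription starts for Wwtr1, 34 bases apart. The 250 bases before the outer one lie at chr3:57575911-57576160 on the minus strand of GRCm38.p6, a build whose coordinates cannot be set beside the mm9 peaks. They read 5′ to 3′ as follows, with the TEAD motif GGAATG and the ETS motif AGGAAG in capitals.
Wwtr1 promoter: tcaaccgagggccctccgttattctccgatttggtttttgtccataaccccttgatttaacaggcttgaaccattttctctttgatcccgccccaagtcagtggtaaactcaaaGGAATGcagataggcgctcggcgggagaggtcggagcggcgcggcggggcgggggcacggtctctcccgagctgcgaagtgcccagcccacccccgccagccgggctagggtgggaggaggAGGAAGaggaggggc
The TEAD motif begins 136 bases before the start, and 12.6% of 32851 RefSeq promoters of this length hold it on either strand. The ETS motif begins 15 bases before the start, and 29.5% of those promoters hold it. TGANTCA, the AP-1 motif, was not found in this window on either strand. Nor were AGATAA, a form of the GATA motif, and TGTGGT, a form of the RUNX motif. Of all promoters 6.75%, 9.99% and 14% hold these exact sequences, in the same order. Other forms of the motifs were not searched for. The window does hold AGATAG, which differs from AGATAA only in its last base, just after the TEAD motif. The motifs were chosen with the sequence in view and do not overlap each other here. The window is 61.6% G or C, against a median of 52.4% over all promoters.

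Library totals ran from 4200905 to 5129684 counts. The 24 peaks took 3015 counts in the 4 old libraries together and 1470 in the 4 young ones. Levels are given as CPM, the counts of a peak scaled to a common library size over the tested peaks. Old replicate 4 stood apart over the whole table, where it lay between the young libraries and the other old ones, so values are also given without it.

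Accessibility summed over the 24 peaks was about 2-fold higher in old HSCs. The sums were 174, 171, 169 and 162 CPM in old replicates 1 to 4. In young replicates 1 to 4 they were 78.1, 79.5, 86.8 and 88.3 CPM. Every old library thus lay well above every young one, with a wide empty range between the groups. The means were 169 ± 4.97 CPM over old and 83.2 ± 5.10 CPM over young libraries (SD, n = 4 per group), a ratio of 2.03, or 2.07 without old replicate 4. The spread over old libraries was 2.94% of their mean, where windows of the same length had a median of 6.70%. In young libraries these values were 6.13% and 6.50%. The windows were not matched for level, and their median sum in young libraries was 86.9 CPM. Counting noise weighs more on weaker windows, so the smaller spread over old libraries is not read as a trait of the locus.

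The difference was shared by most peaks and was not carried by a single peak. The mean was higher in old libraries at 22 of the 24 peaks and lower at 2. All 4 old libraries lay above all 4 young ones at 13 peaks, and at none did they all lie below. The share over all deposited peaks was not computed for this count, so it only describes the 24 peaks. The count filter left 12 of the 24 peaks for the whole-table test. At 11 of these 12 all old libraries lay above all young ones, which held at 10.5% of all tested peaks (the reverse held at 10.6%). The edgeR quasi-likelihood test called 9 of the 12 higher in old at a Benjamini-Hochberg adjusted p below 0.05, where 10% of all tested peaks were called higher. It called 0 lower, where 10.4% of all tested peaks were called lower, and 0 had an unadjusted p under 0.05 in that direction. DESeq2 called 0 of 21 lower, where it called 4.68% of all peaks lower, and limma voom 0 of 12, against 10.7%. A peak that passed the count filter only through its old libraries was favoured by the filter to be higher in old. Most of the called peaks were of this kind. For example, the young libraries had 7 and 23 counts in all at the peaks that begin at 57313941 and 57289900. The 11 and 9 of 12 tested peaks, and the 0 called lower, are therefore no support beside the shares of all tested peaks. The fit was also repeated with no filter. It then called 11 of 24 higher, against 8.46% of all 126871 peaks, and 0 lower, against 7.69%. The median log2 fold change in that fit was 1.33 over the 24 peaks and 0.01 over all deposited peaks, and it was above 0 at 22 of 24 and at 50.5% respectively. The interval was chosen for its rise, so the values without a filter are also a description and no support.

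**Figure D1:**
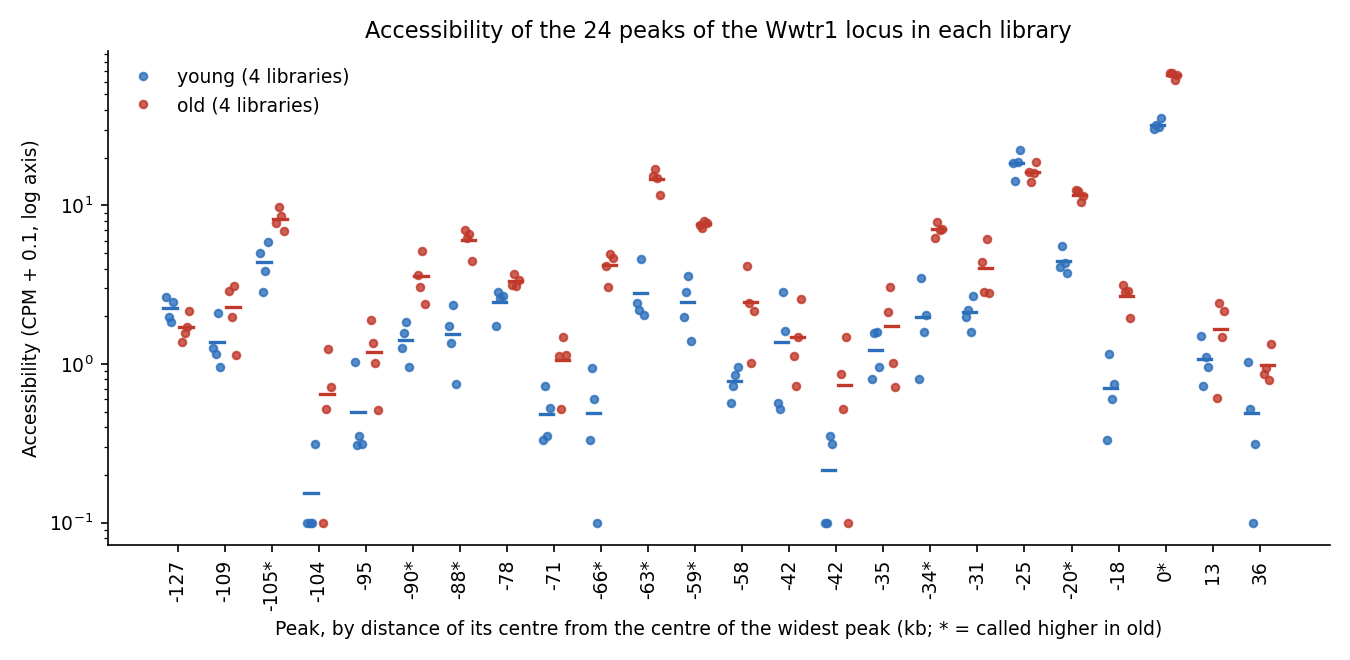
Accessibility of each of the 24 peaks (x axis: distance of the peak's centre from the centre of the widest peak, in kb, low to high coordinates; y axis: CPM plus 0.1 on a log axis). Each point is a library, blue for young and red for old, horizontal lines are group means, and stars mark the 9 peaks called higher in old, at which all old points lie above all young points; the peak 25 kb below the widest one shows overlapping groups.

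The widest peak also had the highest CPM of the locus in both groups. CPM is not corrected for width, and a wider peak can collect more counts by its size. It ran from 57378825 to 57380663, covered 1839 bases and was wider than 99.3% of all deposited peaks. Its level in young libraries was above that of 93.7% of all peaks. Old replicates 1 to 4 had 68.0, 67.7, 61.8 and 66.6 CPM there. Young replicates 1 to 4 had 30.3, 32.2, 31.0 and 35.3 CPM. Old replicate 4 lay within the range of the remaining old libraries at this peak. The old mean was 66.0 ± 2.87 CPM from 1179 counts and the young mean 32.2 ± 2.22 CPM from 571 counts (SD, n = 4 each), and the log2 fold change was 1.03 ± 0.08 (SE, edgeR). This SE was the smallest of the 12 peaks of the locus that could be tested.

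This peak made up 38.7% of the summed level in young and 39.0% in old libraries, so that its part of the locus was nearly the same in both groups. Its difference of 33.8 CPM was the largest of the 24, at 38.1% of the summed gains of the 22 peaks with a higher mean. Without it the other 23 peaks summed to 103 ± 5.16 CPM over old and 51.0 ± 4.09 CPM over young libraries, a ratio of 2.02. The 2 peaks with the largest gains reached 50% of the gains, and 7 peaks were needed for 80% and 11 for 90%. The 9 called peaks held 87.2% of the gains.

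**Figure D2:**
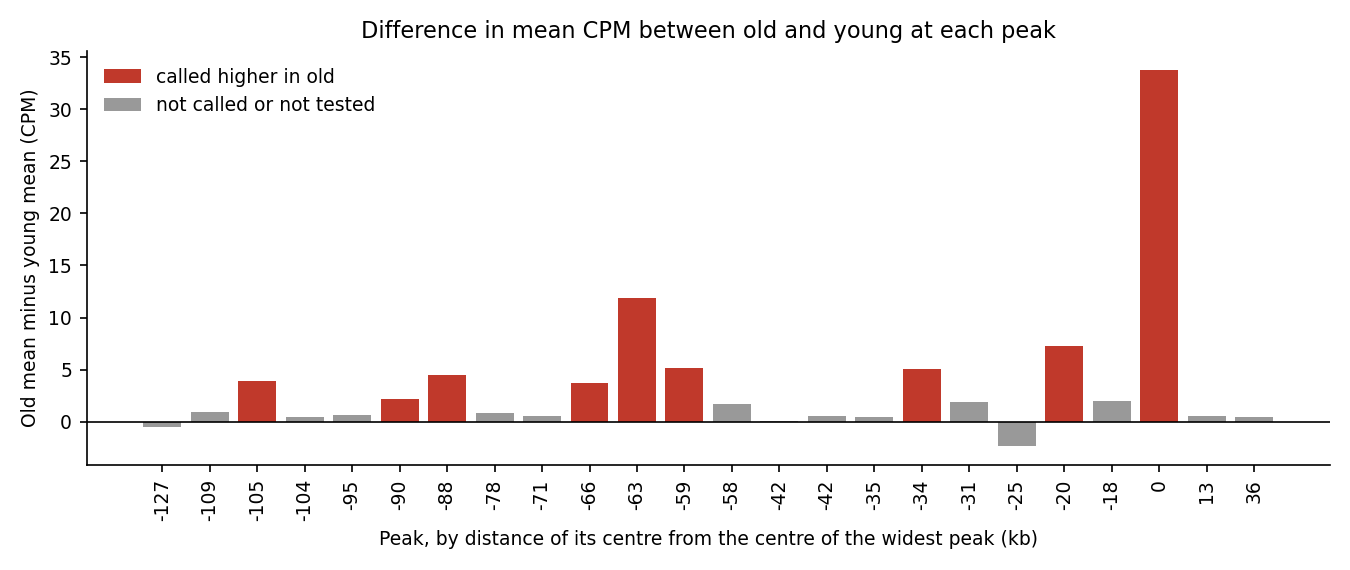
Old mean minus young mean of each peak (y axis, CPM) against the distance of its centre from the centre of the widest peak (x axis, kb), with called peaks in red and peaks not called or not tested in grey. The widest peak has the tallest bar at 33.8 CPM, the peak 63 kb below it follows at 11.9 CPM, and the only bar clearly below 0 is at -2.31 CPM.

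The 21 peaks on the low-coordinate side of the widest peak, the direction in which Wwtr1 is transcribed, held 8 of the 9 called peaks. The other called peak was the widest one itself. This side also held 11 of the 12 tested peaks, and the 2 peaks on the other side were not tested. The calls therefore do not compare the 2 sides. The largest gain among the 8 called peaks was at the peak from 57315900 to 57316946, which lay 63 kb from the widest peak, centre to centre. Old replicates 1 to 4 had 15.3, 16.8, 14.8 and 11.6 CPM, and young replicates 1 to 4 had 2.33, 2.1, 4.50 and 1.94 CPM. The groups were far apart, with old replicate 4 lowest among the old libraries and young replicate 3 highest among the young ones. The means were 14.6 ± 2.21 and 2.72 ± 1.20 CPM (SD, n = 4 each), and the log2 fold change was 2.44 ± 0.25 (SE, edgeR). Its part of the summed level was 8.64% in old and 3.27% in young libraries.

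Called peaks stood on both sides of this peak. The peak from 57313941 to 57314492, 1407 bases away, was close to closed in young libraries, which had 0.233, 0.842, 0.50 and 0 CPM, or 7 counts in all. Old replicates 1 to 4 had 4.07, 2.95, 4.84 and 4.55 CPM there, or 73 counts. Its log2 fold change of 3.28 ± 0.49 (SE, edgeR) was the largest of the 9 called peaks and also the least precise. At the peak from 57320086 to 57320495, old libraries had 7.38, 7.15, 7.84 and 7.65 CPM. Young libraries had 1.87, 2.74, 3.50 and 1.29 CPM at this peak, so the young group was the more spread one. Its means were 7.51 ± 0.302 CPM over old and 2.35 ± 0.970 CPM over young libraries (SD, n = 4 per group).

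Nearer to the widest peak, the peak from 57359503 to 57360096 had 12.5, 12.2, 10.4 and 11.4 CPM in old replicates 1 to 4. In young replicates 1 to 4 it had 3.96, 5.47, 4.25 and 3.66 CPM. The log2 fold change was 1.41 ± 0.21 (SE, edgeR), and the groups were separate with a small spread in each. The peak from 57345092 to 57345538 had 6.11, 7.78, 6.92 and 7.03 CPM in old libraries. In young libraries it had 0.70, 3.37, 1.5 and 1.94 CPM. Young replicate 2 was the highest young library at both of these peaks and still lay below every old library.

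The remaining 3 called peaks lay farthest from the widest peak and outside the window whose rise led to the choice of the locus. The peak from 57291140 to 57291977 had 6.87, 6.10, 6.46 and 4.34 CPM in the old and 1.63, 1.26, 2.25 and 0.646 CPM in the young libraries. Its neighbour from 57289900 to 57290318 had 3.56, 2.95, 5.07 and 2.27 CPM in the old and 1.17, 1.47, 1.75 and 0.862 CPM in the young libraries. Old replicate 4 was the lowest old library at both and did not reach the young range. The peak from 57274169 to 57275207 had 7.64, 9.68, 8.53 and 6.82 CPM in the old and 4.90, 2.74, 3.75 and 5.82 CPM in the young libraries. Here the highest young library came close to the lowest old one. Its log2 fold change of 0.92 ± 0.24 (SE, edgeR) was the smallest among the called peaks.

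The 8 peaks outside that window together had 24.7, 24.6, 27.4 and 18.8 CPM in old replicates 1 to 4. Young replicates 1 to 4 had 13.3, 9.05, 11.8 and 11.2 CPM, and the ratio of the means was 2.11. Inside the window the 16 peaks had a ratio of 2.02. Old replicate 4 was at 143 CPM inside the window, within the range of the other old libraries from 142 to 149 CPM, and below that range outside it.

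The peak from 57354318 to 57355002 did not share the rise seen at most peaks of the locus. It had the next highest CPM after the widest peak in both groups, though it covered only 685 bases. It was chosen for description after its values were seen. Old replicates 1 to 4 had 16.0, 13.9, 15.9 and 18.6 CPM, and young replicates 1 to 4 had 18.4, 14.1, 18.8 and 22.4 CPM. The groups overlapped, though young replicates 3 and 4 lay above every old library. The means were 16.1 ± 1.93 and 18.4 ± 3.40 CPM (SD, n = 4 each), and the log2 fold change of -0.19 ± 0.15 (SE, edgeR) did not pass the test. The peak took 22.1% of the summed level in young libraries and 9.53% in old ones. It lay 4500 bases from the called peak that begins at 57359503. Without it the other 23 peaks had a ratio of 2.36.

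The remaining 2 tested peaks were not called. The peak from 57348135 to 57348636 had 4.33, 2.73, 6.00 and 2.69 CPM in the old and 1.87, 2.1, 1.5 and 2.59 CPM in the young libraries. At the peak from 57301511 to 57302225 the old libraries had 3.06, 3.58, 3.0 and 3.31 CPM and the young ones 1.63, 2.74, 2.5 and 2.59 CPM. In both the groups did not overlap, but old and young libraries were close to each other.

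The 12 peaks left out by the count filter had few counts, at most 46 in a group. Their group means ran from 0.0539 to 2.60 CPM, with the higher mean in old libraries at 11 of them. Old and young libraries did not overlap at 2 of the 12, which were also the 2 of these 12 called higher when no filter was used. The share of such peaks among all untested peaks was not computed. These were the peaks from 57321307 to 57321621, with 41 counts in old and 12 in young libraries, and from 57361387 to 57361783, with 46 and 11 counts. The first had 4.07, 2.31, 0.922 and 2.07 CPM in old replicates 1 to 4 and 0.466, 0.631, 0.75 and 0.862 CPM in young replicates 1 to 4. The second had 3.06, 2.73, 2.77 and 1.86 CPM in old replicates and 0.233, 1.05, 0.50 and 0.646 CPM in young ones. In both cases the closest libraries of the groups were less than 1 CPM apart. Together the 12 summed to 17.4 ± 1.48 CPM over old and 9.44 ± 1.10 CPM over young libraries (SD, n = 4 per group). The peak from 57337142 to 57337561 had means of 1.38 CPM over old and 1.29 CPM over young libraries, and the peak from 57344451 to 57344756 had 1.63 and 1.13 CPM. At the peaks from 57284685 to 57284961 and from 57308756 to 57309026 the means were 1.1 and 0.964 CPM over old and 0.402 and 0.386 CPM over young libraries, with some libraries of the groups overlapping. The peak from 57275279 to 57275478 had 10 counts in old and 1 in young libraries, and the peak from 57337650 to 57337965 had 11 and 2.

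The 2 ends of the interval held weak peaks. Just inside the low end, the peak from 57252455 to 57252736 had means of 1.61 CPM in the old and 2.14 CPM in the young libraries, and the next one, from 57270259 to 57270551, had 2.18 and 1.27 CPM. Just outside it, the peaks from 57239390 to 57239655 and from 57233487 to 57233715 had 0.758 and 1.45 CPM in the old and 1.24 and 0.222 CPM in the young libraries. Inside the high end, the peaks from 57392205 to 57392552 and from 57415846 to 57416103 had 1.57 and 0.884 CPM in the old and 0.973 and 0.392 CPM in the young libraries. Outside it, the peaks from 57423709 to 57423973 and from 57429449 to 57429968 had 1.54 and 3.72 CPM in the old and 0.820 and 3.03 CPM in the young libraries. The 2 high-end peaks inside the interval are the ones above the widest peak, so nearly all of the counts and of the difference lay at the widest peak and below it. Together these 2 had 2.45 CPM over old and 1.37 CPM over young libraries, a ratio of 1.80 with overlapping groups. The 21 peaks below the widest one had a ratio of 2.03.

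The window of equal length directly below the locus, from 57060001 to 57240000, was also more accessible in old HSCs. Its 8 peaks summed to 51.7, 50.1, 54.7 and 44.0 CPM in the old and 27.1, 25.3, 27.8 and 24.6 CPM in the young libraries, a ratio of 1.92. Most of this came from the peak from 57098435 to 57099610, with 35.2 ± 2.34 CPM over old and 17 ± 1.82 CPM over young libraries (SD, n = 4 per group). Its log2 fold change was 1.05 ± 0.11 (SE; edgeR quasi-likelihood test with Benjamini-Hochberg adjustment, adjusted p = 3.67e-06). In all, 2 of the 3 tested peaks there were called higher, where 10% of all tested peaks were.

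The window directly above, from 57420001 to 57600000, did not show this. Its 8 peaks summed to 110 ± 5.74 CPM over old and 102 ± 13.1 CPM over young libraries (SD, n = 4 per group), a ratio of 1.08 with overlapping groups. The 6 tested peaks there gave 0 calls in either direction with edgeR, where 10% of all tested peaks were called higher and 10.4% lower. Its strongest peak, from 57539425 to 57540635, had 61.2 ± 4.03 CPM over old and 56.9 ± 7.66 CPM over young libraries. The difference between the locus and this window was not tested, since the locus was chosen for its rise.

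**Figure D3:**
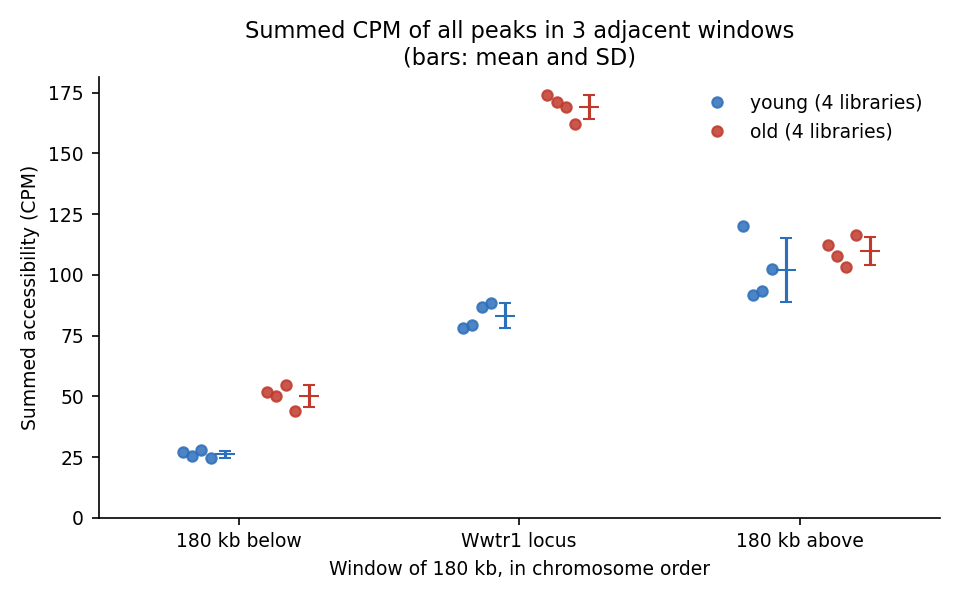
Summed CPM of all peaks (y axis, from 0) in 3 adjacent windows of 180 kb (x axis, low to high coordinates), with a point per library, blue for young and red for old, and bars for the mean and SD. The groups are separate in the Wwtr1 locus, at 162 to 174 against 78.1 to 88.3 CPM, and in the window below it, and they overlap in the window above.

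Set among 8577 windows of this length over the genome with at least 3 peaks and a mean sum of at least 10 CPM, the locus was rich in peaks and of ordinary strength in young cells. It held more peaks than 87.3% of the other windows, and the median window held 13. Its young level was above that of 48.5% of them. The median ratio of old to young over all windows was 1.01, and 189 other windows had a ratio at least as high as the locus. Its peaks had a median width of 414.5 bases, against 408 over all deposited peaks. Their median level was 1.30 CPM in young libraries, below the 2.80 CPM of all deposited peaks, and 2.92 CPM in old libraries, above the 2.68 CPM of all peaks.

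Likeness to the locus was measured over the 8 libraries as the root mean square difference in log2 summed CPM, each window centred on its own mean, which mostly compares the size of the difference between groups. The median window differed by 0.52. The window most like the locus lay on chromosome 9 from 34200001 to 34380000, at 0.09, with 41.2 ± 2.42 CPM over old and 21.9 ± 1.98 CPM over young libraries (SD, n = 4 per group) and 4 of 4 tested peaks called higher. The next was the window directly below the locus, at 0.11. The window on chromosome 5 from 38160001 to 38340000 followed at 0.12, with 94.3 ± 11.2 CPM over old and 45 ± 5.77 CPM over young libraries (SD, n = 4 per group). It had 7 of 10 tested peaks called higher. Over all tested peaks 10% were called higher. These windows were picked for a difference like that of the locus, so their calls follow from the choice and are no support.

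At peaks called higher in old without it, old replicate 4 was closer to the other old libraries in this locus than over the whole table. Each library was left out in turn and placed on a scale from 0, the mean of the other young libraries, to 1, the mean of the other old libraries, in log2 CPM. Over the 10997 peaks called higher without old replicate 4, 14.5% of those tested, the median position of old replicate 4 was 0.54. At the 11 peaks of the locus called higher without it, its median position was 0.83, from 0.40 to 1.09. For the summed level of the locus it was 0.92. Old replicates 1 to 3 had medians of 1.03 to 1.05 at the locus and 0.99 to 1.11 over all such peaks. The young libraries had medians of -0.21 to 0.19 at the locus and 0.03 to 0.31 over all such peaks, with young replicate 2 highest in both. These positions are a description, since the locus was chosen with all 8 libraries in view.

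**Figure D4:**
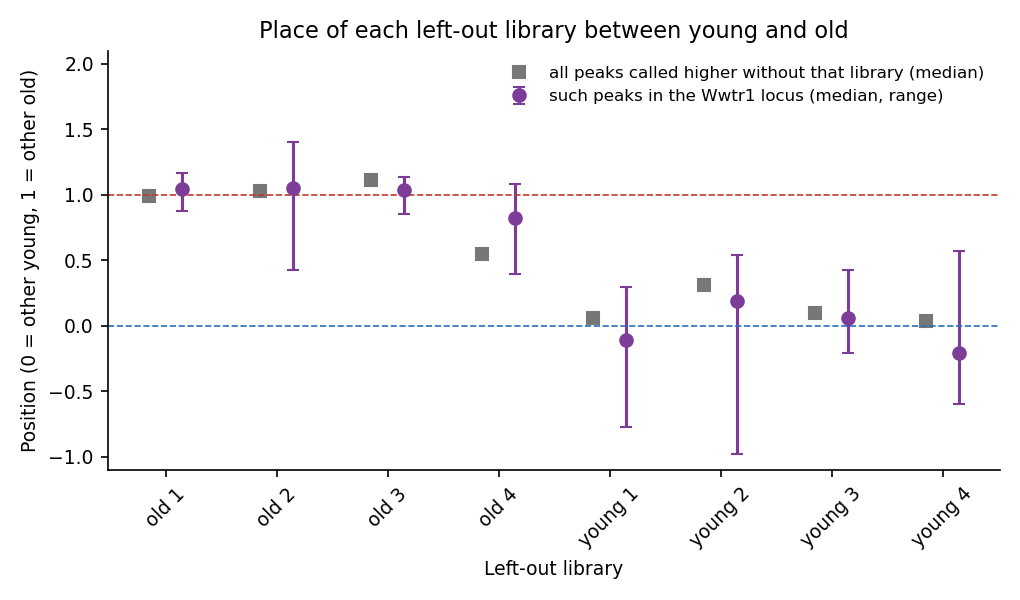
Position of each left-out library (x axis) between the mean of the other young libraries, at 0, and that of the other old ones, at 1 (y axis, log2 CPM scale). Grey squares are medians over all peaks called higher without that library. Purple points with bars are the median and range over such peaks of the Wwtr1 locus. Old replicate 4 lies at 0.54 over all such peaks and at 0.83 over those of the locus.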

How the data were processed

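Bulk ATAC-seq counts of 8 libraries, grouped as old or young by their titles, were analysed. The authors deposited raw read counts per peak over a peak set shared by the libraries. Per the submitters' processing notes, which give no versions, the tools were Bowtie2, MACS2, Picard, SAMtools, Trim Galore and FastQC, and the build was mm9. The merging of peaks, the counting program and any transposase shift of read ends are not given in the sources used. Peaks called on the compared libraries can favour sites open in either group.

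Peaks were filtered with filterByExpr (minimum count 10, minimum total 15), which kept 73164 peaks and 94.2% of the counts. Old was compared with young in edgeR 4.0.16 (TMM scaling, glmQLFit, robust, glmQLFTest) in R 4.3.3, with p-values adjusted over all tested peaks. The SE of a log2 fold change is not printed by this test. It was derived as the absolute log2 fold change over the square root of the test's F statistic. CPM was computed here from the deposited counts with the same scaling. Widths count both end positions. The test was checked on simulated counts. Within groups, every pair of libraries differed by more than sampling noise (chi-square per peak at least 1.19). Peaks described singly were the 5 with the largest gain, those called, the strongest in young libraries and the 2 on each side of each end; others are named as chosen after their values were seen or to complete the account of the 24. The locus and these rules were chosen with earlier results of these data known. Alternatives used DESeq2 1.42.0, limma 3.58.1, other scalings and filters, a replicate block and each library left out.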

Additional observations from a re-analysis of the deposited data

Results flagged for a closer look

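In 50 groups of 4 values, the 24 peaks and their sum in each age group, 3 held a library far from the other 3, where chance gives about 1 in 20, or 2.5. At the peak from 57315900 to 57316946, young replicate 3 had 4.50 CPM and the other young libraries 1.94 to 2.33 CPM. At the peak from 57284685 to 57284961, young replicate 1 had 0.933 CPM and the others 0.21 to 0.25 CPM. At the peak from 57275279 to 57275478, young replicate 4 had 0.215 CPM, a single count, and the others had 0.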

How the results depend on the processing

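The number of peaks called higher in old is given here with the share of all tested peaks called higher under the same setting. It was 9 with DESeq2 size factors (9.95%), total counts (9%), limma voom (9.83%) and the replicate block (11.1%), 10 with loess offsets (9.66%) and DESeq2's test (5.26%), 11 with no count filter (8.46%) and 7 at an adjusted p below 0.01 (5.05%). With a mean count of at least 50 it was 1 (9.94%), since only 2 peaks of the locus were then tested. With each library left out in turn it was 8 to 11, and the share over all peaks ran from 6.84% without old replicate 3, where it was 8, to 14.5% without old replicate 4, where it was 11. No peak was called lower under any of these settings. The share of all tested peaks called lower ran from 4.68% with DESeq2's test to 15.5% without old replicate 4. Few peaks of the locus were tested, so the lack of lower calls is a description only. The ratio of summed levels, 2.03, was 1.99 to 2.08 with each library left out, 2.01 with total counts, 2.06 over tested peaks only and 2.04 as the mean of the ratios of same-numbered libraries (replicate block). Over the peaks outside the window from 57300001 to 57400000, an alternative chosen after seeing the data, it was 2.11. Same-numbered libraries had correlations of -0.01 to 0.18 in their deviations from group means, and 2 of 4 old libraries correlated best with their own number. The numbers were not used as pairs in the main fit, and whether same-numbered libraries share a batch was not tested. The 12 peaks that were not tested had at most 46 counts in a group, which limits what can be said of each. The groups cannot be told apart from other differences between the sets of libraries.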
